A study of Pan troglodytes with 8 samples.

Results

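The regions described here are stretches of chimpanzee chromatin at which a peak of accessibility was called in basal radial glia (bRG) and at no overlapping position in the other sorted populations. They are the intervals of the deposited bRG consensus peak list that share not even 1 bp with an interval of the lists of neurons (N), basal intermediate progenitors (bIP) or apical radial glia (aRG), with chromosomes X and Y left out. Positions are in the chimpanzee assembly panTro6, counted from 1. Those given for single regions or peaks are the bounds of the counted region, which can be wider or narrower than the peak interval. Of 85795 bRG intervals, 6244 (7.28%) met the rule. Of these, 5827 had a row of their own in the table of read counts, which has 211143 rows without X and Y. Another 222 overlapped rows that a second list also overlapped, 195 had no row, and 89 of the 6244 lay on unplaced or random contigs.

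The libraries are bulk ATAC-seq, in which a transposase cuts open chromatin, from cells sorted out of chimpanzee cerebral organoids, which are stem-cell-derived tissues that form cortex-like zones. All 4 populations came from 1 induced pluripotent stem cell line, SandraA, with no genetic change or drug treatment named as differing between them. Organoids were seeded at 9000 cells per well and collected at week 8, give or take 3 days. Each population gave 2 libraries: bRG, N (labelled BCL11B-positive), bIP and aRG. The surface or nuclear markers used in the sort other than BCL11B for neurons are not stated in the labels. Nothing says that libraries 1 and 2 came from separate cultures, so p-values measure only the spread between these libraries, and 1 line cannot stand for the species.

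Radial glia are the stem cells of the developing cortex. Apical radial glia keep a foot on the ventricle, held there by adherens junctions, while basal radial glia have lost that contact and divide further out, in the outer subventricular zone that is large in primates. Basal radial glia keep a fibre toward the pial surface and are known for genes of the extracellular matrix, of cell shape and of LIF and STAT3 signalling. Basal intermediate progenitors divide a limited number of times to give neurons. A peak call is a threshold on signal over local background, so a region can be called in 1 population and fall just short of the threshold in another.

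Library totals over the table were 34803542 and 28937314 counts in bRG, 31558005 and 25193395 in N, 26055512 and 24887500 in bIP, and 27850591 and 24965580 in aRG. Levels are given as CPM, the region's reads scaled to a common library size, with totals adjusted by the TMM method. At the regions closest to HOPX, a marker of basal radial glia in primate cortex, the summed level was 89.6 and 90.7 CPM in bRG, 24.7 and 20.6 in N, 53.3 and 54.6 in bIP, and 106 and 92.3 in aRG. SOX2, a stem cell factor, had 107 and 100 CPM in bRG, 21.9 and 18.8 in N, 48.1 and 57.4 in bIP, and 124 and 106 in aRG. NEUROD2, a neuronal factor, had 23.4 and 21.5 CPM in bRG, 149 and 150 in N, 121 and 107 in bIP, and 24.2 and 20.2 in aRG. HOPX was no higher in bRG than in aRG. BCL11B, the transcription factor named for the sort of N, had 64.1 and 55.1 CPM in bRG, 51.5 and 45.3 in N, 71.1 and 69.5 in bIP, and 69.2 and 61.0 in aRG, so N was lowest at its own label's gene. EOMES, a factor of intermediate progenitors, had 43.6 and 51.0 CPM in bRG, 47.6 and 33.0 in N, 79.4 and 81.3 in bIP, and 57.9 and 55.8 in aRG. PAX6, a radial glia factor, had 55.6 and 51.1 CPM in bRG, 20.8 and 19.4 in N, 30.7 and 35.2 in bIP, and 59.3 and 48.6 in aRG. TTR, a choroid plexus gene, had 25.5 and 23.2 CPM in bRG, 5.22 and 7.08 in N, 10.3 and 9.8 in bIP, and 30.2 and 25.2 in aRG, and GAD1, an interneuron gene, lay between 15.9 and 24.3 CPM in all 8 libraries.

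The bRG-only intervals were mostly weak peaks. Peak strength is given by the authors' -log10 q-value, where larger means further above local background. Its median was 42.6 in the bRG-only intervals (5th to 95th percentile 25.1 to 99.2, highest 356), against 175 in the other 79551 bRG intervals. With the bRG list ranked by strength and cut into 10 bins of equal size, the weakest bin held 53.2% of the bRG-only intervals and the next 26.2%, while the strongest 2 bins held none. They were also narrower, with a median width of 537 bp against 818 bp, and 67.2% had a single summit against 38.3% of the others. The authors' fold enrichment had a median of 6.39 against 11.3. The aRG-only intervals were alike, with a median width of 537 bp and 68.7% with a single summit. Their medians were 35.5 for -log10 q and 6.57 for fold enrichment.

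**Figure D1:**
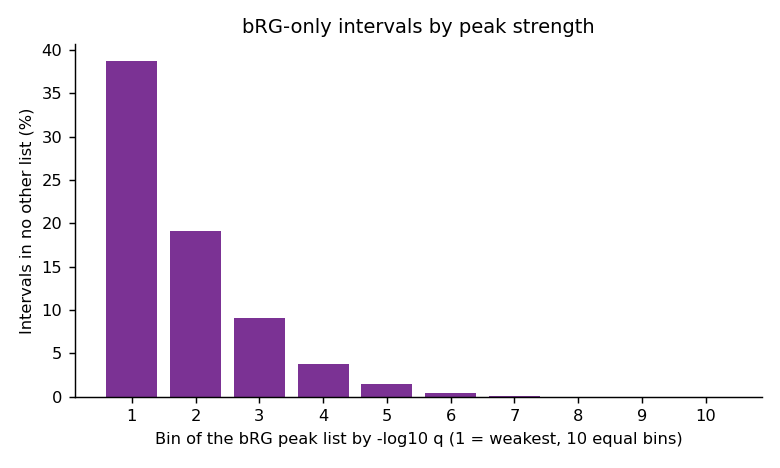
Share of the intervals in each of 10 equal bins of the bRG peak list, ordered by the authors' -log10 q from weakest (left) to strongest (right), that overlap no interval of the N, bIP or aRG lists. The share was 38.7% in the weakest bin and 19.1% in the next, and no such interval lay in the last 2 bins.

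Most of these intervals stood clear of other peaks. The median gap to the nearest interval of another list was 4863.5 bp, and 1028 of 6244 had one within 1000 bp. Near the edge of the rule, 37 intervals lay within 100 bp of another list and had a median -log10 q of 41.4, while 16 bRG intervals that another list overlapped by under 100 bp, and which were therefore left out, had 41.1.

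Accessibility at the bRG-only regions was graded, highest in bRG, close below in aRG, then bIP, and lowest in N. Because bRG peaks chose the regions, levels in bRG and contrasts with bRG are a description, and the counts of calls given for these contrasts support nothing. The median level per region was 1.89 and 1.84 CPM in bRG, 0.497 and 0.511 in N, 0.8 and 0.961 in bIP, and 1.69 and 1.68 in aRG. These correspond to medians of 64 and 54 reads in bRG, 16 and 13 in N, 22 and 25 in bIP, and 43 and 40 in aRG. The mean level per region was 2.23 ± 0.0513 CPM in bRG, 0.771 ± 0.00907 in N (34.6% of the bRG mean), 1.13 ± 0.077 in bIP (50.7%) and 2.03 ± 0.0161 in aRG (91.1%; SD, n = 2 throughout). In bulk libraries, an open site in fewer cells and a site less open in each cell cannot be told apart. At most 3 reads were found at 1 and 2 of the 5827 regions in the bRG libraries, at 279 and 396 in N, at 44 and 20 in bIP, and at 2 and 1 in aRG.

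**Figure D2:**
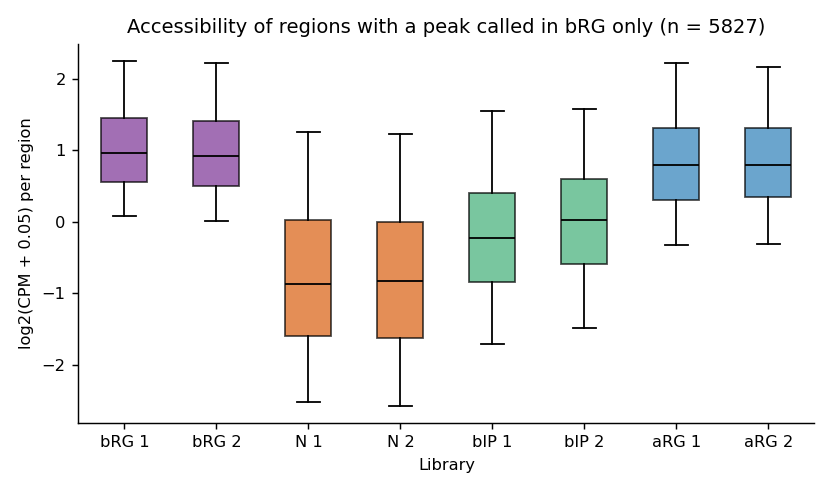
Level of the 5827 bRG-only regions in each of the 8 libraries, as log2 of CPM plus 0.05. Boxes span the quartiles with the median as a line, and whiskers reach the 5th and 95th percentiles. The median stood at 1.89 and 1.84 CPM in bRG and 1.69 and 1.68 CPM in aRG, with bIP below them and N lowest.

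The gap between bRG and aRG was small at nearly every region that had a peak in bRG only. The ratio of the bRG mean to the aRG mean had a median of 1.11 (5th to 95th percentile 0.827 to 1.56). It was above 1 at 71.96% of regions, above 1.5 at 396 (6.8%) and above 2 at 22 (0.38%). Both bRG libraries lay above both aRG libraries at 1544 of 5825 regions (26.5%), where this held for 17.0% of all regions tested. Both same-numbered pairs were higher in bRG at 2780 of 5827 regions (47.7%, against 28.8% of all regions tested), and neither pair at 601 (10.3%). The share for both pairs was 60.3% with library totals unscaled by TMM. The TMM factors were 0.9775 and 1.017 in bRG and 0.9174 and 0.9546 in aRG. Leaving them out raises bRG relative to aRG at every region. No share of all regions was taken with unscaled totals, so the 60.3% has no reference. Edging the other way, regions with a peak in aRG only had a median bRG to aRG ratio of 0.852, and regions with peaks in both radial glia but not in bIP or N had 0.966.

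**Figure D3:**
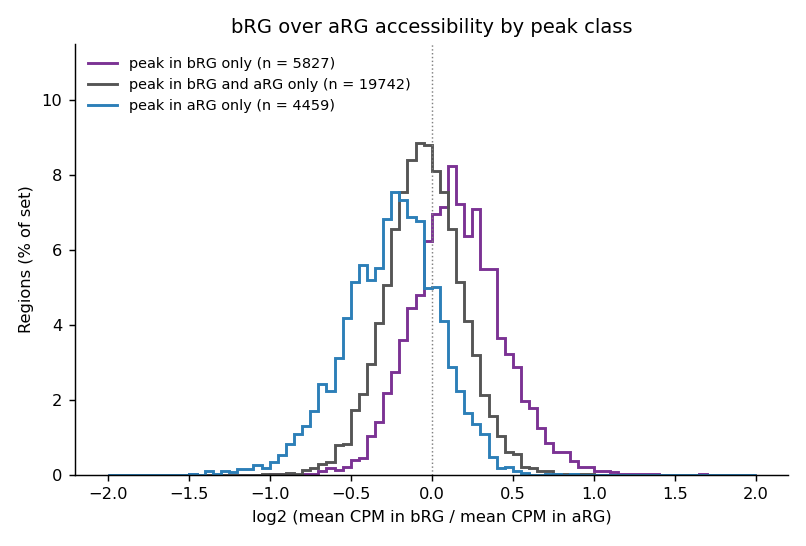
Distribution of the log2 ratio of mean CPM in bRG to mean CPM in aRG, in bins of equal width, for regions with a peak in bRG only, in both radial glia only, and in aRG only, each as a percentage of its own set. The 3 distributions overlap widely, with medians (as ratios) of 1.11, 0.966 and 0.852.

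No difference between bRG and aRG was called at any of the 5825 bRG-only regions that passed the filter on low counts (0.0% of all 198027 regions tested were called), by edgeR's quasi-likelihood test at a Benjamini-Hochberg adjusted p under 0.05 or by DESeq2. Before adjustment, 83 of the 5825 (1.42%) had p under 0.05 in edgeR, against 2.64% of all regions tested. The rule asked for a bRG peak and for none in aRG, so these counts are a description and test nothing. Contrasts with bIP and N follow from the rule, which asked for a bRG peak and for none in bIP or N. Their median log2 differences were 1.15 for bRG over bIP and 1.98 for bRG over N. For the record, 3378 regions were called in either direction for bRG against bIP (42.8% of all regions were). For bRG against N, 4651 were (67.9% of all regions). The count against bIP was lower without bRG 1 or bIP 1, and so was the share of all regions called.

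The full order of the population means was bRG, then aRG, then bIP, then N at 3068 regions (52.65%). At 1259 (21.61%) aRG stood above bRG with the rest of the order the same. The highest mean was that of bRG at 3814 regions (65.45%), N at 262 (4.5%), bIP at 243 (4.17%) and aRG at 1508 (25.88%). Over all regions tested, these shares were 14.76% for bRG, 40.6% for N, 18.2% for bIP and 26.43% for aRG. In the same way, aRG was highest at 74.61% of regions with an aRG-only peak. Peaks in bRG chose the regions, so the place of bRG in the order is a description. The lowest mean was that of N at 4722 regions (81.04%).

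The regions furthest above aRG are the 6 of largest log2 difference among those with a bRG mean of at least 1 CPM, and were chosen by that difference. They were 275 to 500 bp wide, where the median bRG-only region was 663 bp. Of the 6, 1 had no closest gene and the others had a non-coding one, 14.2 to 61.2 kb away. A region on chromosome 2A (43605568 to 43606012), closest to the pseudogene RN7SL531P, had 1.44 and 1.57 CPM in bRG, 0.218 and 0.511 in N, 0.364 and 0.461 in bIP, and 0.275 and 0.673 in aRG. Its bRG libraries stood above the 6 others, and its ratio to aRG of 3.18 was the highest found. The region nearest AL157931.2, on chromosome 13 (4075297 to 4075714), had 1.27 and 1.4 CPM in bRG, 0.0932 and 0.0786 in N, 0.255 and 0.384 in bIP, and 0.353 and 0.715 in aRG. The region nearest the microRNA gene MIR4681 had 1.38 and 1.64 CPM in bRG, 0.0621 and 0.236 in N, 0.4 and 0.384 in bIP, and 0.471 and 0.883 in aRG. In each of these 3 regions the bRG libraries lay above all others.

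The contrasts that leave bRG out were tested. The rule required a missing peak in N, bIP and aRG alike and set no order among them. These tests are still not independent of the choice, because bRG and aRG levels were close (median ratio 1.11). Choosing by bRG peaks thus also favours regions open in aRG. All regions together include those with peaks only in N or only in bIP, so their shares are only a reference. Relative to aRG, accessibility in neurons was lower at most bRG-only regions. In edgeR's quasi-likelihood test, 4370 of 5825 regions fell in N relative to aRG (75.0%, against 31.7% of all regions) and 78 rose (1.34%, against 37.2% of all regions). The median log2 difference of N from aRG was -1.81, where over all regions it was 0.13. Both N libraries lay below both aRG libraries at 4870 regions (83.61%), where this held for 39.7% of all regions. The number called in either direction was 4448 (69.0% of all regions were). When any single library was left out, the share of bRG-only regions called stayed above that of all regions in the same fit.

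Intermediate progenitors stood between. Relative to aRG, 2779 regions fell in bIP (47.7%, against 22.6% of all regions) and 34 rose (0.58%, against 24.5%), with a median log2 difference of -0.97 where over all regions it was 0.05. The number called in either direction was 2813 (47.2% of all regions were). It was lower without aRG 1, aRG 2 or bIP 1, and so was the share of all regions called. In each of these fits the share of bRG-only regions called was below that of all regions. Relative to bIP, 1729 regions fell in N (29.7%, against 22.6% of all regions) and 93 rose (1.6%, against 25.0%), with a median log2 difference of -0.77. The count in either direction was 1822 (47.6% of all regions were called). It was lower without bIP 2 or N 2, and so was the share of all regions called. The fit without the bRG libraries called 2612 of 5819 for bIP against aRG, 4340 for N against aRG and 1647 for N against bIP. It called 46.0, 68.5 and 46.3% of all regions in these comparisons. Lower calls made up 44.46, 73.5 and 27.01% of the bRG-only regions.

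**Figure D4:**
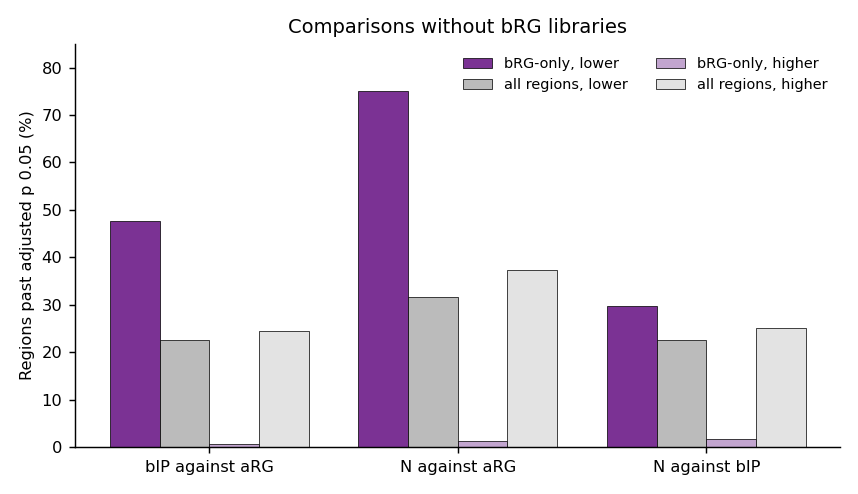
Percentage of bRG-only regions and of all 198027 regions tested that passed an adjusted p of 0.05 in edgeR's test, split into lower and higher, for bIP against aRG, N against aRG and N against bIP. Lower calls made up 47.7, 75.0 and 29.7% of the bRG-only regions, and higher calls at most 1.6%.

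Taken by combination, 2658 regions (45.63%) fell both in bIP and in N relative to aRG, and 1710 (29.36%) fell in N with no call in bIP, where 20.78% and 10.36% of all regions did. Another 1240 (21.29%) passed in neither comparison, close to the 24.33% of all regions. Only 16 bRG-only regions (0.27%) rose in both, where 19.01% of all regions did.

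Other radial glia peak classes are given as a description, since their rules ask for an aRG peak and for none in N or bIP. Regions with peaks in both radial glia only were called lower in N than in aRG at 92.3%, with a median log2 difference of -2.71, and lower in bIP at 82.0%. Regions with an aRG-only peak were called lower in N at 81.7% and in bIP at 64.6%. Within the bRG-only regions, the share lower in N grew with peak strength. In 4 bins of -log10 q, from weakest to strongest, it was 69.46, 71.68, 74.83 and 84.28%, and the median bRG to aRG ratio was 1.07, 1.1, 1.12 and 1.15. The bins run from 13.1 to 32.9, to 43.1, to 59.4 and to 356. Strength is bRG signal, which the rule used, so the growth over the bins is a description. The median aRG level rose over the same bins (1.39, 1.52, 1.78 and 2.44 CPM). That of N stayed between 0.479 and 0.538 CPM.

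The strongest bRG-only peaks differed between libraries of the same population. Among the 100 regions of highest -log10 q, library 2 exceeded library 1 by over 2-fold at 38 in bRG, 11 in N, 46 in bIP and 59 in aRG, and library 1 exceeded library 2 by as much at 7, 4, 1 and 19. The excess of library 2 was shared by bRG and aRG at 37 of the 100, against 29 of the 5727 other regions (0.51%). These regions were chosen by signal in bRG, so this is a description. Among the 5698 tested regions whose bRG libraries lay within 2-fold of each other, 4339 were called for N against aRG and 2751 for bIP against aRG. Of all regions tested, 69.0% and 47.2% were called in either direction. Lower calls numbered 4261 in N (74.78%, against 31.7% of all regions) and 2717 in bIP (47.68%, against 22.6%).

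**Figure D5:**
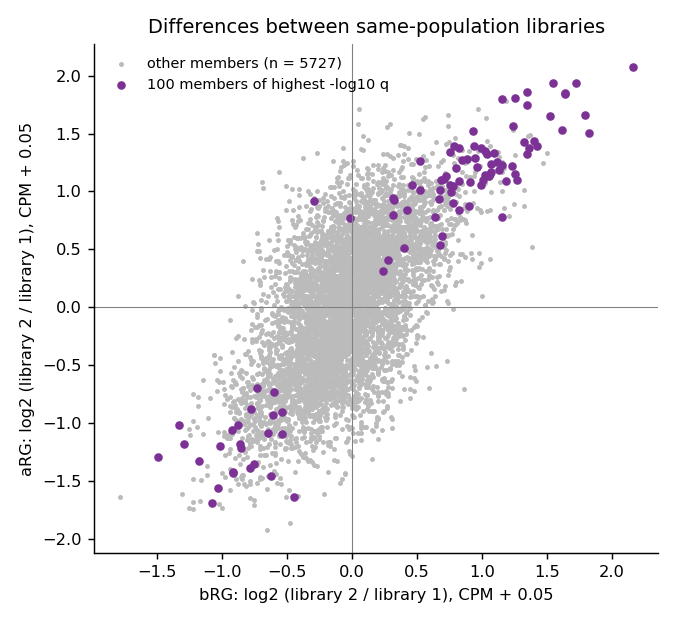
Log2 ratio of library 2 to library 1 in bRG (x) and in aRG (y), with 0.05 CPM added to each level, for the 100 bRG-only regions of highest -log10 q and the other 5727. Most of the 100 lie in the upper right, above 0 on both axes, and a smaller group lies in the lower left.

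The peak of highest -log10 q (356), on chromosome 7 (100458110 to 100459055), had the 7SK pseudogene RN7SKP86 as its closest gene, 73.6 kb away. Its level was 3.51 and 15.9 CPM in bRG, 0.808 and 0.983 in N, 2.0 and 4.96 in bIP, and 3.49 and 14.8 in aRG. Library 2 was the higher one in every population, and bRG and aRG overlapped. Neurons fell here relative to aRG (log2 difference -3.35, SE 0.786, edgeR adjusted p = 0.002). A peak 7.47 kb from SOX9-AS1, an antisense gene beside the glial factor SOX9, on chromosome 17 (65234228 to 65235368), had 4.57 and 12.2 CPM in bRG, 0.994 and 1.02 in N, 1.71 and 4.23 in bIP, and 3.77 and 10.3 in aRG. The same split between libraries appeared in bRG, bIP and aRG, and N was level. The level in N fell relative to aRG (log2 -2.79, SE 0.598, adjusted p = 0.0011). The peak nearest SPATA3, on chromosome 2B (117662576 to 117663479), had 7.98 and 18.9 CPM in bRG, 0.155 and 0.472 in N, 0.837 and 6.07 in bIP, and 4.79 and 14.2 in aRG, and fell in N (log2 -4.96, SE 0.927, adjusted p = 0.00039). The other 3 of the 6 strongest were nearest AGPAT5, ELP3 and C5orf64.

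Few of the bRG-only regions lay at gene starts. Of the 5685 with a closest gene, 131 (2.3%) were at distance 0, where 7.89% of all rows and 33.51% of rows with peaks in all 4 lists were. Rows with peaks in fewer populations were alike, with 2.92% for both radial glia only, 1.44% for N only, 1.84% for bIP only and 2.59% for aRG only. The median distance was 21.4 kb, against 20.3 kb over all rows. The closest gene was protein-coding for 25.44%. The build behind the distances is not stated, and a closest gene is a neighbour, not a known target. Identifiers in human, chimpanzee and gorilla coordinates were all present for 93.07% (94.21% of all rows), and 87 regions (1.49%) had a chimpanzee identifier only, against 1.56% of the other rows with a bRG interval and 0.94% of all rows. Protein-coding genes at most 50 kb away numbered 1043 for 1134 regions. Of these genes, 961 had 1 such region, 73 had 2 and 9 had 3. The 9 were CHST15, LIMD1, MAP2, NET1, NTRK2, PLCE1, PRIMA1, RTN4 and TNR, with 7 (NTRK2) to 22 (MAP2) rows each.

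Gene lists were matched by closest gene at any distance, and each count stands beside 2 shares. Of all bRG rows, 7.05% were bRG-only, and of all bRG-only regions, 75.0% fell in N and 47.7% in bIP relative to aRG. A list near these shares shows nothing of its own.

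Genes known for basal radial glia held bRG-only regions at about the share of all bRG rows. The list of 18 such genes has 65 rows with a bRG interval, and 4 of them (6.15%, against 7.05% over all bRG rows) were bRG-only, at TNC (2), ANXA1 and STAT3. All 4 fell in N relative to aRG (75.0% of bRG-only regions did), in the fit with all libraries and with each library left out. For bIP against aRG 3 fell, and 1 did without aRG 1, without aRG 2 or without bIP 2, and 2 did without either bRG library. TNC encodes tenascin C, a matrix glycoprotein secreted by basal radial glia. Its stronger region, on chromosome 9 (87312019 to 87312686) and 81.7 kb away, had 6.22 and 7.39 CPM in bRG, 0.218 and 0.275 in N, 0.873 and 2.46 in bIP, and 4.47 and 6.14 in aRG. Here bRG libraries lay above all others, and N was nearly closed. It fell in bIP (log2 -1.67, SE 0.406, edgeR adjusted p = 0.0047) and in N (log2 -4.42, SE 0.51, adjusted p = 8.5e-06) relative to aRG. The second TNC region, 17.7 kb away, had 1.47 and 1.23 CPM in bRG, 0.218 and 0.197 in N, 0.509 and 0.307 in bIP, and 0.941 and 1.01 in aRG, again highest in both bRG libraries. The region 94.0 kb from ANXA1, which encodes a phospholipid-binding protein, had 2.0 and 2.45 CPM in bRG, 0.466 and 0.315 in N, 1.49 and 1.38 in bIP, and 1.53 and 2.73 in aRG. The STAT3 region, 8.84 kb from the gene for the transcription factor downstream of LIF, had 1.65 and 2.11 CPM in bRG, 0.435 and 0.511 in N, 1.24 and 0.845 in bIP, and 1.92 and 2.1 in aRG. At ANXA1 and STAT3 the bRG and aRG libraries overlapped.

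Genes of the extracellular matrix and integrins had the largest share among the 17 lists examined. Of 55 bRG rows closest to the 23 genes, 10 (18.18%, against 7.05% over all bRG rows) were bRG-only, at TNC (2), ITGAV (2), FN1 (2), SPARC, LAMC1, HSPG2 and ITGB8. All 10 fell in N relative to aRG, where 75.0% of bRG-only regions did, and 9 did without aRG 1, aRG 2 or N 1. For bIP against aRG 6 fell, 3 without aRG 1, 4 without bIP 2 and 7 without either N library. The median log2 difference of N from aRG was -2.19 over the 10, against -1.81 over all bRG-only regions and 0.13 over all regions. ITGAV encodes integrin alpha V, through which matrix signals reach cortical progenitors. Its region 19.0 kb away, on chromosome 2B (73148549 to 73149882), had 3.18 and 3.03 CPM in bRG, 0.373 and 0.629 in N, 1.02 and 1.19 in bIP, and 3.14 and 3.91 in aRG. The bRG and aRG libraries overlapped, well above bIP and N. It fell in N (log2 -2.83, adjusted p = 1.88e-05) and in bIP (log2 -1.67, adjusted p = 0.0013). SPARC encodes a matrix-binding glycoprotein. Its region had 4.71 and 5.86 CPM in bRG, 1.27 and 0.354 in N, 2.04 and 3.23 in bIP, and 4.43 and 5.8 in aRG, and fell in N (log2 -2.60, adjusted p = 0.000253).

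Genes of cell shape and protrusion, which bear on the fibres of basal radial glia, had 4 bRG-only regions among 80 bRG rows (5.0%, against 7.05%), at RDX (2), PPP1R9A and PLEKHA7. All 4 fell in N relative to aRG (75.0% of bRG-only regions did), and 3 did without aRG 1. For bIP against aRG 3 fell, with 1 without aRG 1, 2 without aRG 2 and 1 without bIP 1. PPP1R9A encodes neurabin, an actin-binding scaffold. Its region, on chromosome 7 (90978648 to 90978999), had 3.92 and 2.52 CPM in bRG, 0.559 and 0.432 in N, 0.728 and 0.653 in bIP, and 4.51 and 2.69 in aRG. The radial glia overlapped and the other populations were uniformly low. It fell in bIP (log2 -2.38, SE 0.39, adjusted p = 0.00038) and in N (log2 -2.84, SE 0.403, adjusted p = 4.4e-05) relative to aRG. RDX encodes radixin, which links membrane to actin. Its region 1.73 kb away had 6.92 and 6.06 CPM in bRG, 2.55 and 2.48 in N, 3.02 and 3.46 in bIP, and 7.65 and 5.21 in aRG, and fell in N (log2 -1.36, adjusted p = 0.0011). The PLEKHA7 region, 10.8 kb from the gene of an adherens junction protein, had 1.62 and 1.43 CPM in bRG, 0.59 and 0.629 in N, 0.982 and 0.884 in bIP, and 2.0 and 1.14 in aRG.

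Shared radial glia genes gave 7 bRG-only regions among 92 bRG rows (7.61%, near the 7.05% of all bRG rows), at LRP2 (2), EMX2, GLI3, ID4, PAX6 and SFRP1. All 7 fell in N relative to aRG (75.0% of bRG-only regions did), and 6 did without aRG 1. For bIP against aRG 4 fell, and 3 did without aRG 1, without aRG 2 or without either bRG library, 1 did without bIP 1, and 5 did without either N library. LRP2, an endocytic receptor of the neuroepithelium, had 3.03 and 3.65 CPM in bRG, 0.373 and 0.826 in N, 0.873 and 1.19 in bIP, and 2.55 and 2.78 in aRG at its stronger region, where both bRG libraries lay above the rest. The PAX6 region, 38.8 kb from the gene for the cortical progenitor factor, had 2.5 and 1.74 CPM in bRG, 0.155 and 0.432 in N, 1.06 and 1.27 in bIP, and 3.49 and 1.47 in aRG. Its aRG libraries lay on either side of those of bRG. In the glial list, NFIA, a driver of gliogenesis, had its strongest region on chromosome 1 (59919207 to 59920221) with 11.7 and 5.86 CPM in bRG, 1.58 and 1.89 in N, 2.04 and 2.07 in bIP, and 11.2 and 5.3 in aRG. Here library 1 was the higher one in both radial glia. It fell in bIP (log2 -2.00, SE 0.411, adjusted p = 0.0017) and in N (log2 -2.25, SE 0.416, adjusted p = 0.00036).

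Signalling lists held bRG-only regions at 7.53 to 7.69% of their bRG rows for Wnt, BMP and TGF-beta, and Notch, near the 7.05% of all bRG rows. The FGF list was lower, with 1 among 63 (1.59%). The Wnt list had 7 among 92 rows, of which 5 fell in N relative to aRG (4 without aRG 1 or N 2, 7 without bIP 2), and 4 in bIP (0 without aRG 1, 2 without aRG 2, 1 without bIP 1). LEF1, which carries the Wnt signal to DNA, had 7.13 and 6.17 CPM in bRG, 1.52 and 0.983 in N, 3.53 and 2.96 in bIP, and 9.02 and 5.3 in aRG. It fell in N (log2 -2.50, SE 0.351, adjusted p = 4.1e-05). The BMP and TGF-beta list had 7 among 93 rows, with 6 lower in N (5 without aRG 1), among them the region 2.28 kb from SMAD1, the BMP signal carrier, with 4.8 and 4.39 CPM in bRG, 1.24 and 1.69 in N, 2.26 and 1.88 in bIP, and 5.73 and 4.46 in aRG. It fell in N (log2 -1.80, SE 0.307, adjusted p = 0.00019). For bIP against aRG 4 of the 7 BMP and TGF-beta regions fell, with 1 without aRG 1 or bIP 1, 2 without aRG 2, and 5 that fell beside 1 that rose without bIP 2. The Notch list had 3 among 39 rows, closest to LFNG, which modifies Notch receptors, DLL4, a Notch ligand, and RBPJ, the DNA-binding partner of Notch, and in the fit with all libraries none passed the test in N or bIP relative to aRG. LFNG had 5.24 and 4.16 CPM in bRG, 4.97 and 2.48 in N, 6.4 and 4.96 in bIP, and 4.47 and 3.53 in aRG. DLL4 had 4.74 and 3.78 CPM in bRG, 6.71 and 6.84 in N, 9.13 and 5.92 in bIP, and 5.22 and 4.12 in aRG. The adjusted p was 0.25 for bIP and 0.82 for N at LFNG, 0.0693 and 0.118 at DLL4, and 0.078 and 0.3 at RBPJ. Of the 3, 1 fell in bIP without N 1 or N 2, 1 rose in bIP without bIP 2, and 1 rose in N without N 1. Between N and bIP, RBPJ rose in N relative to bIP (log2 1.51, adjusted p = 0.0127), and did not pass without bIP 1, bIP 2 or N 2.

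In the remaining lists, counts were small and are set against 75.0% of bRG-only regions lower in N than in aRG. Pan-neuronal genes had 5 bRG-only regions (6.67% of their bRG rows), of which 4 fell in N relative to aRG (3 without N 1, 5 without bIP 2 or N 2). Glial genes had 5 (7.14%), of which 3 fell (2 without aRG 1 or N 1, with 1 that rose without bIP 1 or N 1). Cell cycle genes had 5 (10.2%), of which 4 fell (3 without aRG 1). Choroid plexus and hem genes had 3 (6.12%), all lower (2 without aRG 1, aRG 2 or N 2), and AP-1 and immediate early genes had 2 (5.41%), of which 1 fell (2 without bIP 2). The apical and adherens junction, intermediate progenitor, interneuron and FGF lists had 1 region each, which fell in N, although that of the apical list, at CDH2, did not pass without aRG 2 or N 1. The region of the YAP, TAZ and TEAD list, at WWTR1, did not pass, with an adjusted p of 0.85. The lists with 1 region lay below the 7.05% of all bRG rows. Their shares were 1.96% (apical), 1.69% (intermediate progenitor), 2.08% (interneuron), 1.59% (FGF) and 4.35% (YAP, TAZ and TEAD).

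By bRG level per kb of region, the highest bRG-only regions near coding genes lay at SESN3 (29.9 CPM per kb in bRG and 34.1 in aRG) and EPHB3 (28.0 and 26.6). Next came PDGFRB (22.0 and 21.7), SOX1 (21.2 and 23.9), NEDD4L (21.0 and 21.7) and LARGE2 (19.9 and 16.1). At SESN3, SOX1 and NEDD4L the aRG mean was the higher. The regions at SESN3, EPHB3, NEDD4L and LARGE2 were short, at 181, 265, 213 and 285 bp, where the median bRG-only region was 663 bp. The SOX1 region, 4.7 kb from the gene for a neural progenitor factor, had 17.8 and 11.8 CPM in bRG, 3.64 and 3.11 in N, 5.82 and 5.84 in bIP, and 22.4 and 11.0 in aRG. Library 1 was the higher one in both radial glia, whose values overlapped. It fell in N (log2 -2.30, SE 0.33, adjusted p = 4.7e-05) and in bIP (log2 -1.52, SE 0.318, adjusted p = 0.0019) relative to aRG. The LARGE2 region, near a gene for a glycosyltransferase of dystroglycan, had 6.42 and 4.91 CPM in bRG, 0.746 and 0.275 in N, 3.42 and 3.11 in bIP, and 5.61 and 3.57 in aRG. It fell in N relative to aRG (log2 -3.12, SE 0.426, adjusted p = 3.3e-05).

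Some bRG-only regions had a gene of another cell type as their closest gene. RBFOX3, which encodes the neuronal protein NeuN, had a region 118 kb away on chromosome 17 (72522572 to 72522903) with 6.33 and 5.89 CPM in bRG, 0.963 and 0.786 in N, 3.06 and 3.57 in bIP, and 4.59 and 4.16 in aRG. The bRG libraries stood above all others and N was lowest. It fell in N relative to aRG (log2 -2.31, SE 0.303, adjusted p = 2.3e-05). The region 16.0 kb from PPP1R17, a gene of intermediate progenitors, had 4.01 and 4.09 CPM in bRG, 1.09 and 1.14 in N, 1.93 and 3.54 in bIP, and 2.47 and 3.11 in aRG, and fell in N (log2 -1.32, SE 0.353, adjusted p = 0.0048). The region 17.5 kb from SP8, an interneuron gene, had 3.62 and 3.44 CPM in bRG, 0.311 and 0.393 in N, 0.546 and 1.69 in bIP, and 4.24 and 3.28 in aRG. It fell in bIP (log2 -1.75, SE 0.424, adjusted p = 0.0046) and in N (log2 -3.41, SE 0.486, adjusted p = 4.5e-05).

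The largest falls in N from aRG among regions near coding genes included PIGM, SMYD4 and HDGFL1. The PIGM region, on chromosome 1 (135043220 to 135043665), had 5.83 and 4.43 CPM in bRG, 0.124 and 0.197 in N, 0.764 and 1.54 in bIP, and 8.08 and 5.51 in aRG. Relative to aRG it fell in N (log2 -5.40, SE 0.487, adjusted p = 1.4e-06) on 4 and 5 reads in the N libraries. The SMYD4 region had 2.62 and 2.93 CPM in bRG, 0.0621 and 0.157 in N, 0.546 and 0.346 in bIP, and 2.55 and 5.72 in aRG, and fell in bIP (log2 -3.19, SE 0.466, adjusted p = 0.00018). CRYL1 fell in bIP (log2 -3.07, SE 0.525, adjusted p = 0.00051) and RAG1 did as well (log2 -2.82, SE 0.487, adjusted p = 0.00053).

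Regions that rose were rare. The region 13.5 kb from COL9A1, a collagen gene, on chromosome 6 (67735272 to 67735669), had 0.884 and 0.852 CPM in bRG, 2.14 and 3.89 in N, 0.728 and 0.845 in bIP, and 0.785 and 0.589 in aRG. Both N libraries lay above all others. It rose in N (log2 2.12, SE 0.388, adjusted p = 0.00034) relative to aRG and relative to bIP (log2 1.93, SE 0.378, adjusted p = 0.0013). The KRBA1 region had 1.36 and 1.09 CPM in bRG, 1.71 and 0.865 in N, 6.04 and 3.23 in bIP, and 1.33 and 1.09 in aRG. It rose in bIP (log2 1.93, SE 0.406, adjusted p = 0.002) relative to aRG and fell in N (log2 -1.83, SE 0.398, adjusted p = 0.0025) relative to bIP. By the rule, no peak was called in N at COL9A1 or in bIP at KRBA1, where the read counts were highest.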

How the data were processed

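The 8 libraries are bulk ATAC-seq of 4 sorted populations. The deposited table holds whole-number counts per region, unscaled, per the file headers, with chimpanzee panTro6 identifiers and a closest gene. Per population, the authors deposited 1 consensus peak list in narrowPeak layout, whose columns are a display score, a fold enrichment, which is a ratio, and p and q as -log10 values, per the file headers. Several summit rows of 1 interval were merged, keeping the highest -log10 q. The submitters' processing notes name bcl2fastq 2.20.0, MACS2, panTro6 and hg38. No source used here names the aligner or says how libraries were combined into a list. Starts matched the peak lists when counted from 0, so 1 was added. Rows on X and Y were left out.

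Counts were tested with edgeR 4.0.16 (TMM scaling, filterByExpr, robust quasi-likelihood F-test, population as the only term, all 8 libraries) over 198027 regions, 13116 having been removed, with Benjamini-Hochberg adjustment over all of them and a threshold of 0.05. SE is the log2 difference divided by the square root of F. DESeq2 1.42.0, RLE size factors, no filter, a replicate block, a fit without bRG libraries and leaving out each library were the alternatives. The procedure was also run on simulated counts in which few regions changed, only in N, with the same spread at every region. The data differ in these respects, so that run does not measure how often calls are wrong here. Totals were 24887500 to 34803542 counts, which limits precision at regions with few reads.

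Regions named in the text are the 6 highest in bRG CPM per kb near a coding gene (at most 50 kb), the 6 highest in -log10 q, those closest to genes of the basal radial glia and cell-shape lists, the highest of each other list, the 5 largest changes per direction and tested contrast, and the 6 largest bRG over aRG. ITGAV, SPARC, PAX6, DLL4 and RBPJ were added after their values were seen. The 17 lists hold 312 genes. The regions and lists were chosen with earlier results of these data known. No motif or sequence was examined.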

Additional observations from a re-analysis of the deposited data

How the results depend on the processing

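With each library left out, the number of bRG-only regions called was 1266 to 2987 for bIP against aRG (2813 with all libraries), 3903 to 4642 for N against aRG (4448), 1028 to 1789 for N against bIP (1822), 0 to 0 for bRG against aRG (0), 1581 to 3549 for bRG against bIP (3378) and 4167 to 4876 for bRG against N (4651). Counts for contrasts with bRG follow from the choice of regions. Fewer libraries leave fewer degrees of freedom. At an adjusted p under 0.01, 1452 of 5825 were called for bIP against aRG, 698 for N against bIP and 1928 for bRG against bIP. Over all regions, 32.9, 32.2 and 29.6% were called in these comparisons. An alternative chosen after seeing the data kept only peaks with a -log10 q of at least 50. It left 2251 intervals of 6244 and 2153 tested regions. Of these, 1159 were called for bIP against aRG, 1772 for N against aRG and 788 for N against bIP. Over all regions, 47.2, 69.0 and 47.6% were called. Lower calls made up 53.55, 81.89 and 35.72% of the 2153, against 22.6, 31.7 and 22.6% of all regions. For bRG, 1421 were called against bIP and 1848 against N (42.8 and 67.9% of all regions). Strength is bRG signal, which the rule used, so these counts are a description. The share of regions higher in bRG than aRG in both same-numbered pairs was 47.7% (28.8% of all regions) and 53.3% with the stronger peaks. It was 60.3% with unscaled totals, for which no share of all regions was taken. When every bRG library had to exceed every aRG library, it was 26.5% (17.0% of all regions). Of the tests of single named regions under the alternatives, 2246 kept direction and side of the threshold, 137 lost a call, 74 gained one and none changed direction while called.

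The labels do not say what the replicate number marks. Deviations of same-numbered libraries from their group means had correlations of 0.116 to 0.312 over all regions and 0.127 to 0.636 over the bRG-only regions (highest for bRG with aRG), and with only 2 numbers this is a check on numbers, not on pairs. With a replicate block, 3400 regions were called for bIP against aRG (53.6% of all regions), 4640 for N against aRG (73.0%), 2348 for N against bIP (55.2%), 0 for bRG against aRG (0.0%), 3953 for bRG against bIP (49.5%) and 4885 for bRG against N (72.3%). DESeq2 called 2061 (39.3%), 4201 (61.8%), 1446 (39.6%), 0 (0.0%), 2625 (36.1%) and 4498 (60.3%) in the same comparisons. Few reads limit what can be seen in N, where the median region had 16 and 13 reads. The N totals of 31558005 and 25193395 counts were above those of the same-numbered aRG libraries, 27850591 and 24965580.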
